A study of Rattus norvegicus with 6 samples.

Results

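The respiratory chain and ATP synthase of mitochondria were examined through their nuclear genes, in cerebral arteries of Dahl rats fed low salt or high salt chow. Genes were taken by symbol: those beginning with Nduf (complex I, its assembly factors and the related Ndufa4 genes), the 4 subunits Sdha to Sdhd of complex II, genes beginning with Uqcr and Cyc1 (complex III), genes beginning with Cox4 to Cox8 (complex IV) and genes beginning with Atp5 (complex V). This gave 85 of the 10411 genes measured, each read from its brightest probe set. Another 9 probe sets carried a symbol of this kind beside that of a second gene, and were not named. Cycs (cytochrome c), Cox7a2, Uqcrb, Ndufs5, Ndufa10, Atp5mc1 and Atp5mc2 were represented by such probe sets alone, so that no value is given for them.

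The low salt group held 3 arrays from Dahl rats that ate chow with 0.4% NaCl for 12 weeks, beginning at an age of 7 weeks. The high salt group held 3 arrays from Dahl rats given chow with 8% NaCl from the same age, for 11 weeks in one field of the labels and 12 weeks in another. All rats ate the low salt chow before the study. Each array was hybridised with RNA pooled from intact cerebral resistance arteries of 3 rats, 9 rats per diet, after a 2-cycle amplification. The labels do not say which pools were snap frozen and which were kept in preservative. The replicates are pools of separate rats, and nothing in the labels pairs a low salt pool with a high salt pool.

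The respiratory chain passes electrons from NADH (at complex I) and succinate (at complex II) through ubiquinone, complex III and cytochrome c to oxygen at complex IV, and the protons pumped on the way drive complex V, the ATP synthase. Most subunits are nuclear genes, while a small set is encoded in mitochondrial DNA and was not analysed here. Vascular smooth muscle draws on this pathway for the ATP of contraction and ion pumping. Several subunits of complex IV exist as isoforms that differ between tissues, such as those of heart and skeletal muscle.

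Array values were the authors' log2 values made by RMA, a method that corrects background and summarises the probes of a set. RMA usually also includes quantile normalization, which gives the arrays the same distribution. Array medians were 7.96, 8.07 and 8.07 on low salt and 8.17, 8.15 and 8.17 on high salt. Every high salt array thus had a higher median than every low salt array. The interquartile range was 2.57 on low salt replicate 1 and 2.92 to 3.18 on the other arrays. The deposited values thus did not have the same distribution on all arrays. Correlations over probe sets were 0.919 to 0.967 between low salt replicate 1 and the other arrays, and 0.968 to 0.988 among those. Markers of smooth muscle were high on every array (mean of 10 genes 11.32 to 12.12 on low salt and 11.46 to 11.59 on high salt), and all 10 had a lower mean on high salt, by a median of -0.15, or -0.38 relative to genes of equal brightness. Markers of astrocytes were present too (mean of 10 genes 8.54 to 10.74 on low salt, 10.40 to 10.78 on high salt), and 9 of the 10 had a higher mean on high salt. The 3 red blood cell markers averaged 10.03 to 10.22 on low salt and 10.46 to 11.18 on high salt. Neuronal markers, from cells rich in mitochondria, averaged 7.25 to 8.04 on low salt and 7.66 to 7.94 on high salt (9 genes). The part of these marker differences in the values of the 85 genes was not tested. In pooled tissue a smaller share of a cell type and less RNA per cell cannot be told apart.

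By limma with Benjamini-Hochberg adjustment over 15866 probe sets, 0 of the 85 genes differed between diets (adjusted p below 0.05). Over all genes the share called was 0% as well. At an unadjusted p below 0.05 stood 1 of the 85 (1.18%), Cyc1, on the lower side after high salt. Of all genes 6.43% did so, 5.72% on the higher and 0.711% on the lower side, and of the brightest quintile of genes 8.07%. These counts moved when 1 array was left out. The members had 6 on the higher and 1 on the lower side when either replicate 3 was left out, 2 and 2 when low salt replicate 2 was, and 1 and 1 when low salt replicate 1 was. Over all 15866 probe sets the 735 on the higher and 111 on the lower side became 2026 and 696 in the absence of low salt replicate 2. In that of high salt replicate 1 they became 312 and 54. They became 701 and 55 without low salt replicate 3, 582 and 113 without high salt replicate 3, and 484 and 92 without low salt replicate 1. The 3 arrays of each diet did not overlap for 5 of the 85 (5.88%). Of these Cox7a2l and Ndufaf7 were on the higher side after high salt and Cyc1, Cox6b1 and Ndufaf4 on the lower side. Among all genes the share without overlap was 12.0%, 8.64% on the higher and 3.32% on the lower side. In the brightest quintile it was 12.3%, 10.6% on the higher and 1.73% on the lower side.

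The 85 genes lay on both sides of 0. On high salt 55 had the higher mean and 30 the lower one, with a median difference (high salt minus low salt) of 0.15 log2 units and a range from -0.82 to 0.64. Over all 10411 genes 60.0% had the higher mean on high salt and the median difference was 0.07. Bright genes were shifted more than dim ones in this table, and 61 of the 85 belonged to the brightest quintile. For each gene the median difference of the 500 genes nearest to it in mean value was therefore taken as the shift of genes of equal brightness, and the median of these shifts over the 85 genes was 0.27. Relative to its own shift, 36 genes were higher and 49 lower, with a median of -0.07.

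The count of genes with the higher mean was 46 of 85 after median centring and 37 after quantile normalization, with medians of 0.02 and -0.06. The median of all genes was -0.06 and -0.02 under these scalings. The direction of the median thus depended on the scaling. Over all probe sets the split at an unadjusted p below 0.05 moved with it as well, from 735 higher and 111 lower to 384 and 433 after centring and 365 and 403 after quantile normalization. Leaving out high salt replicate 2 gave a median of 0.02, leaving out low salt replicate 1 gave 0.07, and leaving out low salt replicate 3 or high salt replicate 3 gave 0.29 and 0.25. The median SE of a member was 0.27 log2 units, and the 95% interval of the difference lay within 1 log2 unit of 0 for 43 of the 85 genes and within 1.5 log2 units for 77. For the rest, differences beyond these sizes lay inside the interval that 3 arrays per diet allow.

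**Figure D1:**
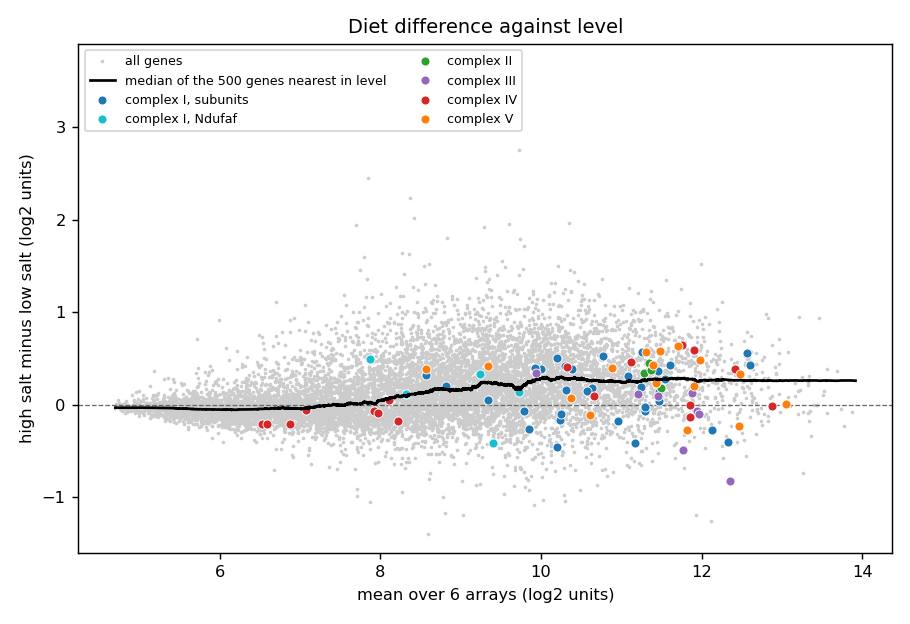
Difference between diets (high salt minus low salt, log2 units) against the mean over 6 arrays (log2 units), with all 10411 genes in grey, the 85 respiratory chain and ATP synthase genes coloured by complex, and a line for the median of the 500 genes nearest in level. The line rises to about the 0.27 that is its median over the 85 genes, and 49 of the 85 lie below it, with Uqcrq lowest at -0.82.

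The promoters of the genes were read for motifs of factors known for nuclear control of the respiratory chain. Windows from RefSeq (assembly GRCr8, 250 bases before to 50 after the start of a gene) were at hand for 76 of the 85. Each motif was searched on both strands. The motif of NRF-1 (nuclear respiratory factor 1) stood in 15 windows (19.7%), against 9.02% of the 8611 array genes with a window. The letters AAGATGGCG of YY1 type stood in 11 windows (14.5% against 3.43%), always in the reading direction of the gene and after its start in 9 of the 11. The letters ACTTCCGG of ETS type, which fit GABP (nuclear respiratory factor 2), stood in 8 (10.5% against 7.08%), and TCAAGGTCA of the oestrogen-related receptors in 2 (2.63% against 0.186%). At least 1 of the 4 motifs stood in 33 windows, or 43.4% against 17.9%, and more than 1 kind in 3. The motifs do not contain each other, but matches of the first can overlap themselves, as in Ndufa11. A match is a run of letters, not a measured binding site.

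The 5 stretches of 120 bases that follow end at the base before the start of the gene. They are shown as examples of stretches with a match, and Uqcrq as the gene with the lowest difference. Capitals mark a match that lies wholly within the stretch: NRF-1 type in Sdha and Ndufa11, ETS type in Cox8a and Uqcrq, oestrogen-related receptor type in Atp5mc3. A further NRF-1 match of Sdha begins at the last base shown and is not marked.
Sdha (GRCr8, chr1:30764433-30764552, plus strand): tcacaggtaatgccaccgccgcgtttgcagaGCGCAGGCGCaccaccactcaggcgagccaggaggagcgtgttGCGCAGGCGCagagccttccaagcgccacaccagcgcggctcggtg
Ndufa11 (GRCr8, chr9:1637494-1637613, plus strand): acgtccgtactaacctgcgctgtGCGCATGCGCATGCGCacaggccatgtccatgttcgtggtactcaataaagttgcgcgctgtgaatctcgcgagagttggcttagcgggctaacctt
Cox8a (GRCr8, chr1:213833624-213833743, minus strand): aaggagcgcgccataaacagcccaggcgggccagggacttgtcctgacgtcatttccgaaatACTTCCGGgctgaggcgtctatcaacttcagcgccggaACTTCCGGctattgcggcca
Uqcrq (GRCr8, chr10:38089979-38090098, minus strand): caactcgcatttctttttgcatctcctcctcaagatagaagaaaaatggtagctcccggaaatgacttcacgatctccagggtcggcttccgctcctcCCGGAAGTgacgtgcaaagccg
Atp5mc3 (GRCr8, chr3:79220665-79220784, minus strand): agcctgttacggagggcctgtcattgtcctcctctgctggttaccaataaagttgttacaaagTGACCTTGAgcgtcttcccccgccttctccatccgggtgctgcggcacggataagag

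The median difference was 0.14 for the 15 genes with the NRF-1 motif and 0.18 for those without it. It was 0.05 for the 11 with the YY1 letters and 0.19 for those without, and 0.26 for the 8 with the ETS letters and 0.17 for those without. The 2 genes with the receptor motif had a median of 0.35, and the rest 0.15.

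Complex I, the entry for electrons from NADH, was measured through 34 structural subunits. On high salt 23 had the higher mean and 11 the lower, with a median difference of 0.19, which became -0.07 relative to genes of equal brightness and -0.04 after quantile normalization. It was 0.059 without high salt replicate 2 and 0.068 without low salt replicate 1, but 0.31 when low salt replicate 3 was left out. The diets overlapped for all 34. The brightest, Ndufa1, was 11.91, 12.67 and 12.60 on low salt and 12.74, 13.32 and 12.41 on high salt. The means differed by 0.43 ± 0.31 (SE). Here high salt replicate 2 was highest and low salt replicate 1 lowest, while high salt replicate 3 lay among the low salt arrays.

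The complex I subunits with the lowest p were all on the higher side. Ndufb3, of the membrane arm, was 11.83, 12.43 and 12.61 on low salt and 12.88, 13.06 and 12.60 on high salt, a difference of 0.56 ± 0.24. Ndufb11, also of the membrane arm, was 11.07, 11.23 and 11.51 on low salt and 11.59, 11.83 and 11.48 on high salt, a difference of 0.36 ± 0.16. For both, high salt replicate 3 fell just below low salt replicate 3. Ndufa5, of the peripheral arm, was 8.38, 8.35 and 8.49 on low salt and 8.72, 9.00 and 8.47 on high salt, a difference of 0.32 ± 0.15, again with high salt replicate 3 inside the low salt range. For all 3 limma gave a Benjamini-Hochberg adjusted p of 0.803.

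Ndufb1, a small membrane subunit, had the lowest difference of complex I. It was 10.88, 9.79 and 10.62 on low salt and 9.97, 10.66 and 9.29 on high salt, a difference of -0.46 ± 0.43, and the spread within each diet was larger than the difference. Among the 7 core subunits, the ancestral ones that hold the flavin and the iron-sulfur clusters, 6 were measured, 4 with the higher mean on high salt. Their median was 0.29, or 0.04 relative to genes of equal brightness, with 3 above and 3 below their own shift. Ndufs1, the largest of them, was chosen after its values were seen. It was 8.71, 10.62 and 9.84 on low salt and 9.61, 10.19 and 10.56 on high salt, a difference of 0.40 ± 0.52. Low salt replicate 1 was the lowest array by far, and without it the difference was -0.11.

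Complex I is built with the help of assembly factors, of which 5 of the Ndufaf family were measured, 4 with the higher mean on high salt. Ndufaf7, a methyltransferase that modifies a core subunit, was 7.19, 7.82 and 7.85 on low salt and 8.11, 7.86 and 8.36 on high salt. The diets did not overlap, by a margin under the spread of either, and the difference was 0.49 ± 0.23. Ndufaf4 was 9.90, 9.44 and 9.49 on low salt and 9.29, 9.39 and 8.90 on high salt, a difference of -0.42 ± 0.19 with no overlap. Ndufaf3, which acts together with Ndufaf4, differed by 0.14 ± 0.17 and stood at -0.11 after quantile normalization. Ndufaf8 differed by 0.33 ± 0.23. Without low salt replicate 1 the difference was 0.28 for Ndufaf7 and -0.27 for Ndufaf4, and without high salt replicate 3 it was -0.27 for Ndufaf4.

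Complex II, succinate dehydrogenase, is the member shared with the citric acid cycle. All 4 subunits had the higher mean on high salt, with a median of 0.36, and 0.09 relative to genes of equal brightness. Sdha, the flavoprotein that oxidises succinate, was 10.41, 11.76 and 11.18 on low salt and 11.27, 11.45 and 11.65 on high salt, a difference of 0.34 ± 0.34. Sdhb, the iron-sulfur subunit, was 10.52, 11.30 and 11.55 on low salt and 11.41, 11.53 and 11.80 on high salt, a difference of 0.46 ± 0.29. The membrane anchors Sdhc and Sdhd differed by 0.18 ± 0.27 and 0.37 ± 0.34.

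All 4 subunits of complex II were lowest on low salt replicate 1, by a median of 0.85 below their own means. Without that array the median difference of the complex was -0.01, with Sdha at -0.01, Sdhc at -0.12 and Sdhd at -0.00456, while Sdhb stayed at 0.15. The median of complex II thus depended on 1 array. A second probe set of Sdhd, at a mean level of 10.51, was 10.30, 10.33 and 10.36 on low salt and 10.36, 10.83 and 10.87 on high salt, a difference of 0.36 ± 0.16. On this probe set low salt replicate 1 did not stand apart from the other low salt arrays.

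Complex III, which passes electrons from ubiquinol to cytochrome c, was measured through 8 genes. On high salt 4 had the higher mean and 4 the lower, with a median of 0.01, and 7 of the 8 lay below genes of equal brightness, by a median of -0.25. Cyc1, cytochrome c1, which carries the haem that reduces cytochrome c, was 12.23, 11.89 and 11.91 on low salt and 11.46, 11.52 and 11.59 on high salt. The lowest low salt array lay above the highest high salt array. The means were 12.0 ± 0.20 (SD, n = 3) and 11.5 ± 0.065, a difference of -0.49 ± 0.13 (SE), or 0.714 of the low salt level (limma, unadjusted p = 0.00922, Benjamini-Hochberg adjusted p = 0.803).

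Cyc1 kept its direction in each of 15 alternatives, from -0.77 relative to genes of equal brightness to -0.37 without low salt replicate 1, and its lowest adjusted p among them (limma, Benjamini-Hochberg) was 0.214. Since 74 of the 10411 genes (0.711%) stood at an unadjusted p below 0.05 on the lower side, 1 of 85 is near the share among all genes.

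Uqcrq, a small subunit of complex III that lies near cytochrome b, had the lowest difference of all 85 genes. It was 13.61, 12.09 and 12.61 on low salt and 12.11, 12.23 and 11.50 on high salt. Low salt replicate 1 stood far above the rest and high salt replicate 3 far below, while the other arrays of both diets overlapped. The difference was -0.82 ± 0.42, and -0.40 without low salt replicate 1. Uqcrfs1, the Rieske iron-sulfur protein, ran the other way at 9.07, 10.51 and 9.73 on low salt and 10.04, 10.13 and 10.18 on high salt. Its difference of 0.34 ± 0.36 was -0.00659 without low salt replicate 1. The core proteins Uqcrc1 and Uqcrc2, named after their values were seen, differed by -0.10 ± 0.20 and 0.12 ± 0.31, and both changed sign without low salt replicate 1.

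**Figure D2:**
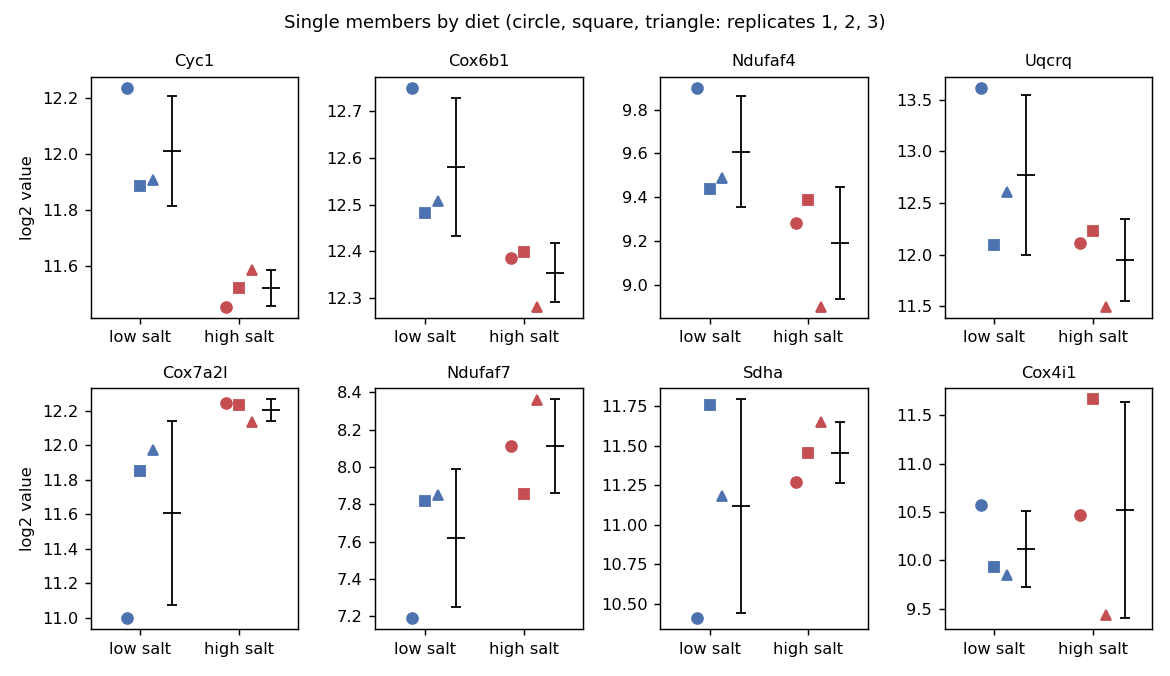
Log2 values of 8 genes in each of the 3 low salt and 3 high salt arrays, each symbol 1 array, with the mean and SD (n = 3) of each diet in black and axes that start above 0. The diets do not overlap for Cyc1, Cox6b1, Ndufaf4, Cox7a2l and Ndufaf7, and low salt replicate 1 (circle) is the highest or the lowest low salt array in each of the 8.

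Complex IV, cytochrome c oxidase, was measured through 18 genes, counting Ndufa4 (now known as a subunit of this complex), its relative Ndufa4l2 and a pseudogene, Cox6c-ps1. On high salt 7 had the higher mean and 11 the lower, with a median of -0.03, or 0.023 when dim probe sets were left out. Relative to genes of equal brightness 13 of the 18 were lower, by a median of -0.15. Cox6b1, which sits at the dimer contact of the oxidase on the cytochrome c side, was 12.75, 12.48 and 12.51 on low salt and 12.38, 12.40 and 12.28 on high salt. All low salt arrays lay above all high salt arrays, and the difference was -0.23 ± 0.11.

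Cox7a2l, which helps to join complexes III and IV into supercomplexes, was 11.00, 11.85 and 11.97 on low salt and 12.24, 12.24 and 12.13 on high salt. The high salt arrays lay close together and above all low salt arrays, and the difference was 0.60 ± 0.27, or 0.29 without low salt replicate 1. Cox7c had the highest difference of all 85 genes, 0.64 ± 0.36, with values of 10.80, 11.54 and 11.97 on low salt and 11.99, 12.56 and 11.69 on high salt. There high salt replicate 3 lay inside the low salt range. Ndufa4 differed by 0.46 ± 0.32 and was lowest on low salt replicate 1, at 10.23.

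Complex IV also holds the subunits with tissue isoforms. Cox4i1, the form found in most tissues, was 10.57, 9.93 and 9.85 on low salt and 10.47, 11.66 and 9.43 on high salt. The high salt arrays ran from the lowest to the highest of all 6, so that the difference of 0.40 ± 0.57 turned to -0.17 without high salt replicate 2. Cox4i2, the oxygen-sensitive lung form, differed by -0.21 ± 0.18 at values from 6.62 to 7.30, all below the median of their arrays. The other forms found in most tissues, Cox6a1 (-0.00133 ± 0.31) and Cox8a (-0.01 ± 0.11), did not differ by more than their SE. The heart and skeletal muscle forms had lower means on high salt, by little more than their SE at most, with Cox6a2 at -0.07 ± 0.35, Cox7a1 at -0.17 ± 0.38 and Cox8b at -0.21 ± 0.18. Low salt replicate 1 was the highest array for each of these muscle forms, at 8.72, 9.05 and 6.99. In the brightness quintiles of Cox6a2, Cox7a1 and Cox8b it was also the highest array for 42.8%, 24.6% and 51.2% of all genes. Without it Cox6a2 stood at 0.32 and Cox7a1 at 0.20. On the same array the mean of 9 skeletal and cardiac muscle markers was the highest of the 6, at 7.34 against 6.88 to 7.07 on the others. It was the highest array for 7 of the 9, but Tnnt2 was 9.78 there and 11.80 on high salt replicate 2. Myh7, Myh6, Tnnt3, Tnnc2 and Mb were dim, at mean levels from 5.65 to 5.95. The part of muscle RNA in these values was not tested.

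Complex V, the ATP synthase, was measured through 16 genes. On high salt 13 had the higher mean and 3 the lower, with a median of 0.36, and 0.10 relative to genes of equal brightness. Quantile normalization gave a median of 0.15. It was also 0.15 when low salt replicate 1 was left out and 0.13 when high salt replicate 2 was. The brightest was Atp5f1b, the catalytic beta subunit of the F1 head. It was 12.69, 13.40 and 13.05 on low salt and 12.95, 13.06 and 13.15 on high salt, a difference of 0.00578 ± 0.19 with a 95% interval from -0.47 to 0.48. After median centring it was -0.12. Atp5pd, of the peripheral stalk that holds the head still, had the lowest p of the complex. It was 10.95, 11.05 and 11.58 on low salt and 11.79, 12.12 and 11.40 on high salt, a difference of 0.58 ± 0.25 with high salt replicate 3 inside the low salt range.

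The other stalk subunits Atp5po and Atp5pf differed by 0.43 ± 0.28 and 0.40 ± 0.25. Atp5mf, a small subunit of the membrane part, had the lowest difference of the complex, -0.28 ± 0.41, and was 0.03 without high salt replicate 3. Atp5if1, the inhibitor that stops the enzyme from running backwards, was 8.82, 9.15 and 9.42 on low salt and 9.99, 9.65 and 9.01 on high salt. Its difference of 0.42 ± 0.29 had high salt replicate 3 below low salt replicates 2 and 3. The other probe sets of Atp5if1, far dimmer at mean levels of 5.57 and 5.96, gave -0.14 ± 0.13 and -0.24 ± 0.10, and the mean of its probe sets 0.016.

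The median range of a member over the 6 arrays was 1.09 log2 units, as it was among the other genes of the brightest quintile, and 0.70 over all genes. Low salt replicate 1 was the lowest array for 40 of the 85 genes (47.1%), and high salt replicate 3 for 28 (32.9%). High salt replicate 2 was the highest array for 42 (49.4%). Low salt replicate 1 was also the lowest array for 63.2% of the 2022 other genes of the brightest quintile. High salt replicate 3 was the lowest for 4.35% of those genes, and high salt replicate 2 the highest for 17.2%.

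Within the high salt group, replicates 2 and 3, each 1 pool of rats, were compared after the values were seen. They were picked as arrays often highest and often lowest for the 85 genes, so a gap between them was to be found. Of the 85 genes 70 (82.4%) were higher on replicate 2 than on replicate 3, with a median gap of 0.45. Among the other genes of the brightest quintile 37.9% were, with a median gap of -0.14. Of 71 mitochondrial ribosomal proteins 77.5% were (median gap 0.21), and of 22 genes of mitochondrial protein import 68.2% (0.34). In the other lists of genes that serve the chain the share ran from 41.2% to 62.5%. The gap held for all 18 genes of complex IV (median 0.30), 31 of the 34 subunits of complex I (0.53) and 13 of the 16 genes of complex V (0.69). It held for 5 of the 8 genes of complex III (0.39), 2 of the 5 Ndufaf genes (-0.009) and 1 of the 4 subunits of complex II (-0.15). Atp5mg, named after its values were seen, was 9.91 on replicate 2 and 7.77 on replicate 3, with replicate 1 at 8.62 and low salt arrays from 8.26 to 8.46. Atp5f1e, likewise, was 13.1 on replicate 2 and 11.6 on replicate 3.

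**Figure D3:**
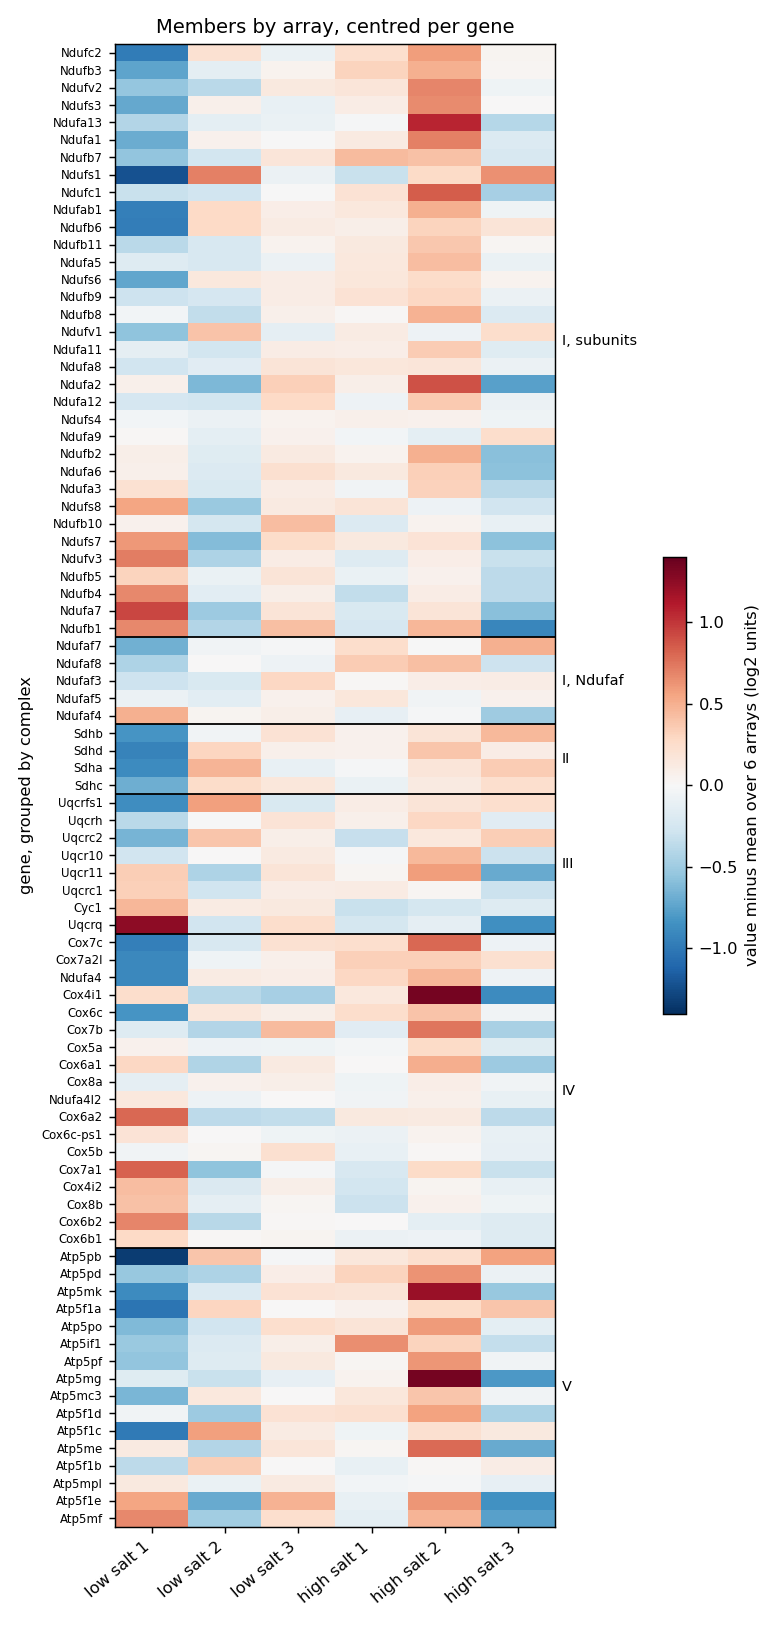
Log2 value of each of the 85 genes on each of the 6 arrays after subtraction of the gene's own mean, in rows grouped by complex and ordered by the difference between diets. Low salt replicate 1 is the lowest array (blue) for 40 genes, high salt replicate 2 the highest (red) for 42 and high salt replicate 3 the lowest for 28.

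The genes did not share a single pattern over the arrays. Atp5pb, of the peripheral stalk, and Atp5f1a, the alpha subunit of the F1 head, both chosen after their values were seen, were at 10.37 and 10.96 on low salt replicate 1 and no lower than 11.68 and 11.99 on any other array. Uqcrq and Atp5mf were at their highest on low salt replicate 1, at 13.61 and 12.49. Spiked-in hybridization controls, bacterial and phage sequences added to each array's mix in set amounts, averaged 10.5 on low salt replicate 1 and 10.1 on high salt replicate 2. They averaged 9.40 on low salt replicate 3, 9.44 on high salt replicate 1, 8.78 on low salt replicate 2 and 8.91 on high salt replicate 3. The controls were thus highest on low salt replicate 1, the lowest array for 40 and the highest for 21 of the 85 genes (24.7%, against 29.1% of all genes). Within the brightest quintile it was the highest array for 19.7% of the 61 members and 10.5% of the other genes. The controls came next on high salt replicate 2, the highest array for 42 and the lowest for none. The 3' to 5' gap of the Gapdh probe sets, a measure of RNA integrity and amplification, was 3.30 on low salt replicate 1, 1.94 on high salt replicate 3 and 2.44 to 2.69 on the other arrays. The same gap for actin ran otherwise, with 3.20 on low salt replicate 1, 3.31 on high salt replicate 3, and 3.16 to 3.89 over all arrays, highest on high salt replicate 1. The part of spike-in level, RNA integrity or cell mix in the differences between arrays was not tested. With the mean of the controls as a covariate the count with the higher mean on high salt was 55 of 85 and the median 0.16.

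**Figure D4:**
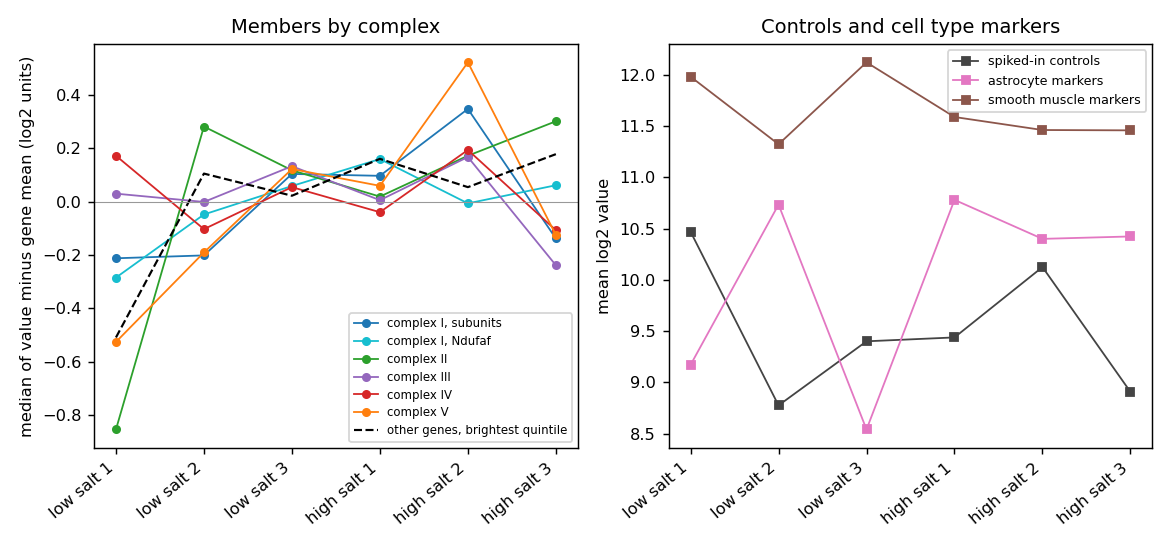
Left, for each array, the median over the genes of each complex of the value minus the gene's own mean (log2 units), with other genes of the brightest quintile as a dashed line. Right, the mean log2 value of spiked-in controls, 10 astrocyte and 10 smooth muscle markers. Lines join unordered arrays to help the eye. Complex II drops by 0.85 on low salt replicate 1, where the controls are at 10.5, and complex V reaches 0.52 on high salt replicate 2.

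Other genes that serve the chain were read from 7 lists with 193 genes in all. Of these 0 differed between diets by limma (Benjamini-Hochberg adjusted p below 0.05). At an unadjusted p below 0.05 stood 18 on the higher and 2 on the lower side, or 10.4% against 6.43% of all genes. The share rose with brightness among all genes up to quintile 4, next below the brightest. It held 194 on the higher and 15 on the lower side of 2082 genes, and quintile 3 held 159 and 18 of 2082. In the brightest quintile the share was 8.07%. Of 71 mitochondrial ribosomal proteins, which make the subunits encoded in mitochondrial DNA, 46 had the higher mean on high salt, with a median of 0.12. For genes of equal brightness the median was 0.22, and 43 of the 71 lay below their own shift. The diets did not overlap for 13 of the 71, all on the higher side, where 8.64% of all genes did so. Among brighter genes this was more frequent, with 278 of the 2082 genes of quintile 4 and 216 of the 2082 of quintile 3 on that side. In the brightest quintile it was 10.6%. Mrps28 was 8.46, 8.30 and 8.61 on low salt and 9.18, 9.24 and 8.85 on high salt, a difference of 0.63 ± 0.15. Mrpl46 differed by 0.71 ± 0.19.

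Among assembly factors outside the Ndufaf family 23 of 36 had the higher mean on high salt, with a median of 0.17 beside 0.21 for genes of equal brightness. Cox14, which stabilises the first subunit of complex IV as it is made, differed by 0.81 ± 0.24, and Lrpprc, which binds mitochondrial messenger RNAs, by 0.72 ± 0.23. Among 22 import genes 13 were on the higher side, with a median of 0.08 beside 0.24 for genes of equal brightness, and 15 of the 22 lay below their own shift. The lowest p belonged to the import chaperone Timm10, at 1.11 ± 0.38, and the translocase subunit Timm22, at 0.40 ± 0.15. The diets did not overlap for any of these 4, for which limma gave a Benjamini-Hochberg adjusted p of 0.803. All 4 were lowest on low salt replicate 1.

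Of 16 genes of pyruvate dehydrogenase and the citric acid cycle 13 had the higher mean on high salt. Idh3g, a subunit of isocitrate dehydrogenase, was on the lower side, at 11.76, 11.98 and 11.94 on low salt and 11.35, 11.58 and 11.52 on high salt, a difference of -0.41 ± 0.11 with no overlap. Dlst, of the oxoglutarate dehydrogenase complex, differed by 0.40 ± 0.16. Of 17 carriers, porins and uncoupling proteins 13 were on the higher side, with the carnitine carrier Slc25a20 at 0.67 ± 0.14 and the citrate carrier Slc25a1 at 0.81 ± 0.24. Of 16 genes for electron entry at ubiquinone 13 were too, with Etfb, of the electron transfer flavoprotein, at 0.74 ± 0.24 and Coq7, of ubiquinone synthesis, at 0.33 ± 0.12. The medians of these 3 lists were 0.25, 0.29 and 0.28, beside 0.26, 0.17 and 0.14 for genes of equal brightness.

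Regulators of mitochondrial biogenesis were split, with 9 of 15 on the higher side and a median of 0.08 beside 0.10 for genes of equal brightness. Tfam, which packs and transcribes mitochondrial DNA, was 8.71, 10.18 and 9.77 on low salt and 10.53, 10.24 and 10.24 on high salt. The diets did not overlap, with low salt replicate 2 close below the high salt arrays, and the difference was 0.78 ± 0.38, or 0.36 without low salt replicate 1. Polrmt, the mitochondrial RNA polymerase, differed by 0.28 ± 0.15.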

How the data were processed

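Expression was measured on 6 Affymetrix arrays, 3 per diet. The deposited table holds log2 values that the authors made with RMA, per the submitters' processing notes. No version was stated, and base 2 was read from the range of values. Of 15923 probe sets 57 controls were left out. Names came from the platform annotation: 12783 probe sets had 1 symbol, 312 several and 2771 none, and 12748 were matched to RefSeq genes by Entrez identifier, which changed 0 symbols. Some subunits have close copies or pseudogenes that a probe set may also detect.

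The diets were compared with limma 3.58.1 in R 4.3.3 (lmFit, eBayes, no block), adjusted over 15866 probe sets. SEs are moderated, SDs are over 3 arrays, and the number of arrays limits the precision. The steps were tested on simulated data. Genes, lists and motifs were chosen with earlier results of these data known. Named genes are, per complex, the brightest, the 3 of lowest p and the lowest difference, all of complex II, Cyc1, isoforms, Atp5if1, Ndufa4, and the 2 of lowest p per other list; genes outside this are marked in the text. Alternatives were 2 scalings, a filter at the 40th percentile, other variance models, array weights, a replicate block, each array left out, means of probe sets, the shift of genes of equal brightness, other thresholds and, chosen after seeing the data, a spike-in covariate. Deviations of same-numbered arrays from their diet means had correlations over probe sets of 0.04, -0.27 and 0.04. For differently numbered arrays these ran from -0.39 to 0.37. With 3 arrays per diet such values cannot settle whether the numbers pair the pools.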

Additional observations from a re-analysis of the deposited data

How the results depend on the processing

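The count of members called was 0 in every setting that adjusted p (limma, Benjamini-Hochberg, thresholds of 0.05 and 0.1). At an unadjusted p below 0.05 it was 1, and for high salt against low salt, all probe sets, it was 846. The replicate block changed no call: 0 members passed and the median stayed at 0.15. Quantile normalization gave a median of -0.059 over the members, -0.042 for complex I subunits, -0.040 for Ndufaf genes, -0.19 for complex III, -0.11 for Atp5f1b, -0.11 for Ndufaf3, -0.039 for Sdhc and -0.11 for Uqcrc2. Median centring gave -0.12 for complex III, -0.12 for Atp5f1b and -0.015 for Uqcrc2. Array weights gave -0.062 for complex III, -0.028 for Atp5f1b, 0.17 for Cox6a2, -0.058 for Ndufaf3 and -0.024 for Uqcrc2. Minus the shift of genes of equal brightness, 36 members were higher, and the medians were -0.072 over the members, -0.070 for complex I subunits and -0.25 for complex III, with Atp5f1b at -0.26, Ndufaf3 at -0.032, Sdhc at -0.090 and Uqcrc2 at -0.13. Above the 40th percentile the complex IV median was 0.023. With the spike-in covariate Atp5f1b was -0.011 and Cox6a1 0.030. The cause of these changes was not tested.

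With 1 array left out, medians ran from -0.0086 (without low salt replicate 1) to 0.58 for complex II, 0.059 to 0.31 for complex I subunits, -0.13 to 0.13 for complex III, -0.16 to 0.077 for complex IV and 0.070 to 0.32 (without low salt replicate 3) for Ndufaf genes. Signs turned for Atp5f1b (-0.17 to 0.18), Cox6a1 (-0.25 to 0.25), Cox6a2 (-0.26 to 0.32), Cox7a1 (-0.49 to 0.20), Cox8a (-0.081 to 0.026), Cox4i1 (-0.17 to 0.95), Ndufs1 (-0.11 to 0.85), Sdha (-0.013 to 0.66), Sdhc (-0.12 to 0.36), Sdhd (-0.00456 to 0.62), Uqcrc1 (-0.27 to 0.035), Uqcrc2 (-0.18 to 0.34), Uqcrfs1 (-0.00659 to 0.72), Atp5mg (-0.18 to 0.89), Atp5f1e (-0.63 to 0.14) and Atp5mf (-0.59 to 0.030). The table holds no detection calls, so that whether dim probe sets such as those of Cox4i2 and Cox8b lie above background was not tested.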
